A study of Mus musculus with 6 samples.

Results

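The genes described here are 40 genes of the interstitial matrix of the mammary gland and of the fibroblasts that make it, listed by known function. They comprise fibrillar, beaded-filament and fibril-associated collagens, proteoglycans, adhesive glycoproteins, elastic fibre proteins, enzymes that hydroxylate and cross-link collagen, and genes by which fibroblasts are recognised. Of these, 38 were measured, among 18194 genes tested on the arrays. Fbn1 (fibrillin 1) and Loxl2 (a lysyl oxidase) had no probe set that named them alone and were not analysed here. Of the 38, 30 had a mean level above the median of all genes and 8 below it (Col11a1, Col8a1, Col12a1, Col16a1, Vcan, Fbln2, P4ha2 and Pdgfrb).

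The interstitial matrix is the fibrous scaffold that surrounds the ducts and alveoli of the mammary gland outside their basement membrane. Fibroblasts secrete procollagens that are hydroxylated in the endoplasmic reticulum, trimmed outside the cell, assembled into fibrils whose width is set by small leucine-rich proteoglycans, and cross-linked by lysyl oxidases. In involution, the return of the gland to a resting state after weaning, the alveoli are cleared and this stroma is remodelled, with deposition of fibrillar collagen and of matricellular proteins. Rac1 is a small GTPase that controls the actin cytoskeleton and adhesion to the matrix.

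Total RNA of the fourth inguinal mammary gland was hybridised at involution day 2, with 1 Affymetrix mouse expression array for each of 3 Rac1-/- mice (Nas496, Nas497 and Nas518) and 3 WT mice (Nas478, Nas483 and Nas484). Rac1-/- mice had floxed Rac1 alleles on both chromosomes, a YFP reporter in the Rosa locus and a Cre transgene driven by the whey acidic protein promoter. WT mice, described as littermates, carried the floxed alleles and the reporter without Cre. This promoter is active in luminal epithelial cells from mid-pregnancy, so that fibroblasts keep an intact Rac1 gene in both groups. The RNA came from whole glands, so fewer fibroblasts and less RNA per fibroblast cannot be told apart.

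Rac1 itself did not separate the groups: its brightest probe set measured 9.51, 9.01 and 9.84 in Rac1-/- mice, against 9.31, 9.50 and 8.97 in WT mice, all as log2 intensity, a log2 fold change of 0.19. Its other 2 probe sets overlapped too, with lower means in Rac1-/- glands, at -0.80 and -1.38, the second of them dim. On the brighter of these it measured 8.77, 8.34 and 8.14 in Rac1-/- mice, against 8.74, 9.001 and 9.89 in WT mice. The arrays differed in quality. The difference between the 3' and 5' probe sets for actin lay between -1.24 and -0.30 on the log2 scale in Rac1-/- mice, against -0.17 to 0.05 in WT mice, without overlap, and its part in the results was not tested apart from a fit with this difference as a covariate. Nas497 of the Rac1-/- group (195) and Nas484 of the WT group (115) scored highest on the leading principal component (43.6% of the variance). The other 4 arrays were spread along it, at 12 in Nas518, -54 in Nas496, -132 in Nas483 and -136 in Nas478. This order followed the interquartile range of log2 values before normalization. That range was 1.23 in Nas497, 1.42 in Nas484, 1.48 in Nas518, 1.98 in Nas496, 2.42 in Nas483 and 2.85 in Nas478. The number of arrays limited the precision throughout, and p-values measured only the spread between these mice.

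No interstitial matrix or fibroblast gene passed the test between Rac1-/- and WT glands after adjustment, and the median difference of the group was close to that of all genes. Adjusted p (limma, Benjamini-Hochberg over all genes tested) was 0.946 to 0.998 for the 38 genes, and 0 of them passed 0.05, against a background of 0% of all genes, whose smallest adjusted p was 0.575. Their median difference was 0.063 on the log2 scale (Rac1-/- over WT), compared with a median of 0.060 for all genes. Means were higher in Rac1-/- glands for 22 genes and lower for 16, so that 57.9% were higher, compared with 53.9% of all genes. This balance depended on the scaling, since arrays aligned at a common median gave 8 genes with higher and 30 with lower means, at a median of -0.56 for the 38 genes and -0.12 for all genes.

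An unadjusted p under 0.05 was reached by 2 genes with higher levels in Rac1-/- glands, Fn1 and Fmod (5.26% of the 38, where the background was 2.23% of all genes), and by 0 genes with lower levels (background 1.82%). The genotypes did not overlap, with all Rac1-/- mice above all WT mice, for 4 genes (Fn1, Fmod, Fbln1 and Lox, 10.5% of the 38, background 5.41%) and with all Rac1-/- mice below for 1 gene (Col11a1, 2.63%, background 4.20%). These counts came from few genes, and the remaining 33 genes overlapped. Fold changes stayed within 0.5 on the log2 scale for 29 of the 38 genes, or 76.3%, compared with 56.6% of all genes. The same held among genes above the median level, where 24 of 30, or 80.0%, lay within 0.5, compared with 63.1% of all genes of that brightness.

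The precision was low beside these differences. The standard error of the log2 fold change ranged between 0.42 and 1.03 over the 38 genes, with a median of 0.55, and the 95% interval reached a median of 1.25 on either side of the estimate. A doubling in Rac1-/- glands, or 1 on the log2 scale, lay inside the interval for 30 genes, and a halving, or -1, for 26 genes. For most of the list, changes of that size would not have been detectable with this number of mice.

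**Figure D1:**
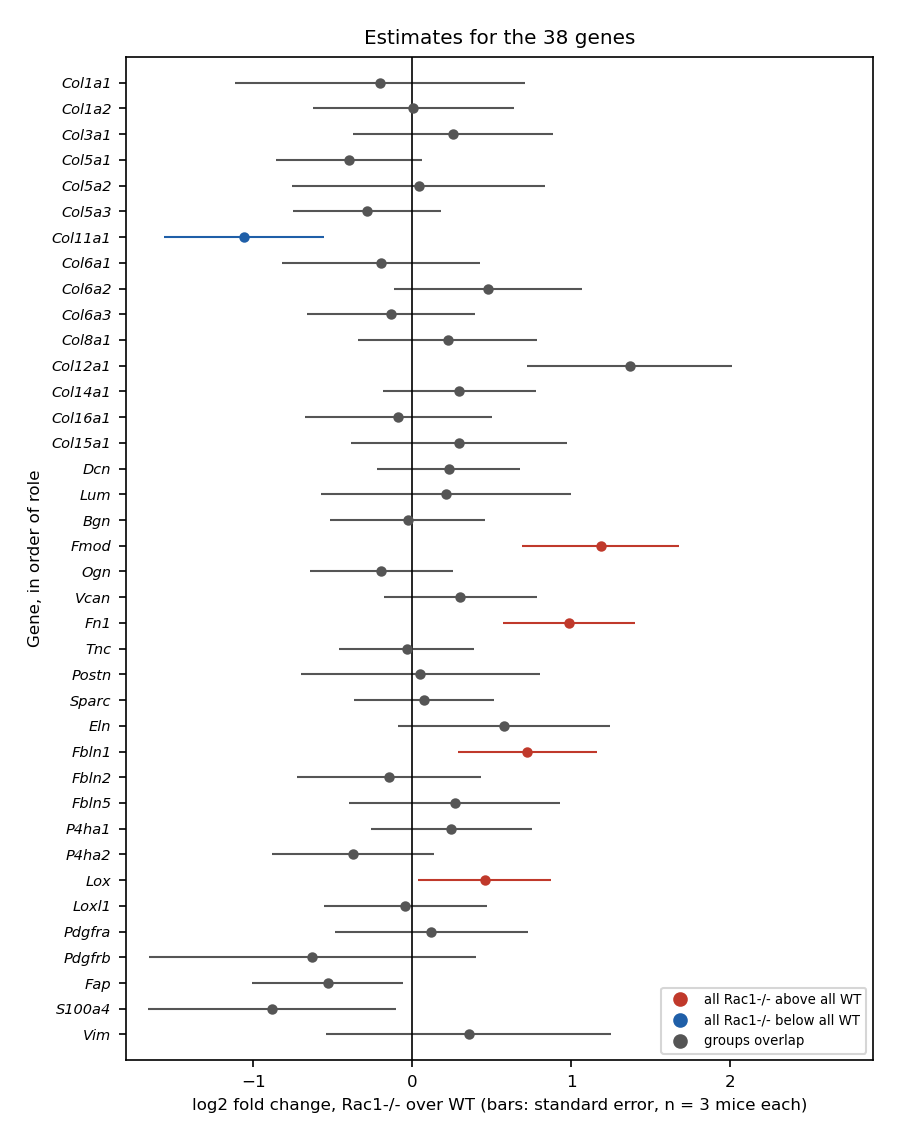
The log2 fold change (Rac1-/- over WT, horizontal axis) of each of the 38 genes (vertical axis, in order of role), with bars for the standard error from 3 mice in each group. Fmod, Fn1, Fbln1 and Lox (red) are the genes with all Rac1-/- mice above all WT mice, Col11a1 (blue) has all Rac1-/- mice below, and the other 33 (grey) overlap.

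Fn1 encodes fibronectin, the adhesive glycoprotein on which fibroblasts assemble collagen fibrils. Its level was 8.97, 8.59 and 8.79 in Rac1-/- mice, against 7.79, 7.94 and 7.65 in WT mice. All 3 Rac1-/- mice were thus above all WT mice, and the groups were 8.78 ± 0.19 in Rac1-/- and 7.79 ± 0.14 in WT (log2 intensity, SD). The log2 fold change was 0.99 ± 0.42 (SE), with a 95% interval of 0.04 to 1.94 and an adjusted p of 0.946 in limma. A dimmer probe set of Fn1 overlapped between genotypes, at 5.32, 6.76 and 6.23 in Rac1-/- mice, against 5.96, 5.68 and 6.21 in WT mice. Fn1 kept its higher mean in Rac1-/- glands whichever mouse was left out, at 0.90 to 1.09, while aligning the arrays at a common median in place of their whole distributions lowered it to 0.15.

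Fmod encodes fibromodulin, a small leucine-rich proteoglycan that binds collagen fibrils and guides their cross-linking. It stood at 6.20, 7.52 and 6.90 in Rac1-/- mice, against 5.95, 5.60 and 5.51 in WT mice. The genotypes were separated, by a log2 fold change of 1.19 ± 0.49 (SE, 95% interval 0.06 to 2.31, adjusted p 0.946 in limma), and without Nas497 the value was 0.86. The call rested on 1 probe set. The other 5 probe sets of Fmod had log2 fold changes of 0.01, -0.44, -1.01, -0.83 and -1.10, all with overlapping groups, and the mean over all its probe sets was lower in Rac1-/- glands, at -0.36.

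Fbln1 encodes fibulin 1, a glycoprotein found in elastic fibres and bound to fibronectin. It measured 7.70, 7.71 and 7.75 in Rac1-/- mice, against 6.81, 6.70 and 7.47 in WT mice. The Rac1-/- mice lay within a narrow band just above the highest WT mouse, Nas484, and the log2 fold change was 0.73 ± 0.44 (SE, 95% interval -0.28 to 1.73). Its other 2 probe sets had log2 fold changes of 0.50 and 0.11 and overlapped.

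Lox encodes lysyl oxidase, which starts the cross-linking of collagen and elastin. It measured 7.42, 7.64 and 7.94 in Rac1-/- mice, against 7.28, 7.13 and 7.22 in WT mice. The gap between the genotypes was small, at a log2 fold change of 0.46 ± 0.42 (SE, 95% interval -0.50 to 1.42), and with arrays aligned at a common median the sign turned, at -0.13. The other 2 probe sets had log2 fold changes of 0.55 ± 0.74 and 1.04 ± 0.74 (SE) with overlapping groups.

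Col11a1, a minor fibrillar collagen chain that nucleates fibrils and is best known from cartilage, was the gene with lower values in every Rac1-/- mouse. It measured 3.72, 4.56 and 5.14 in Rac1-/- mice, against 5.78, 5.44 and 5.37 in WT mice. The log2 fold change was -1.06 ± 0.50 (SE, 95% interval -2.20 to 0.09, adjusted p 0.946 in limma). This was among the dim genes of the list, and its other probe set overlapped, at -0.51 ± 0.52 (SE).

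**Figure D2:**
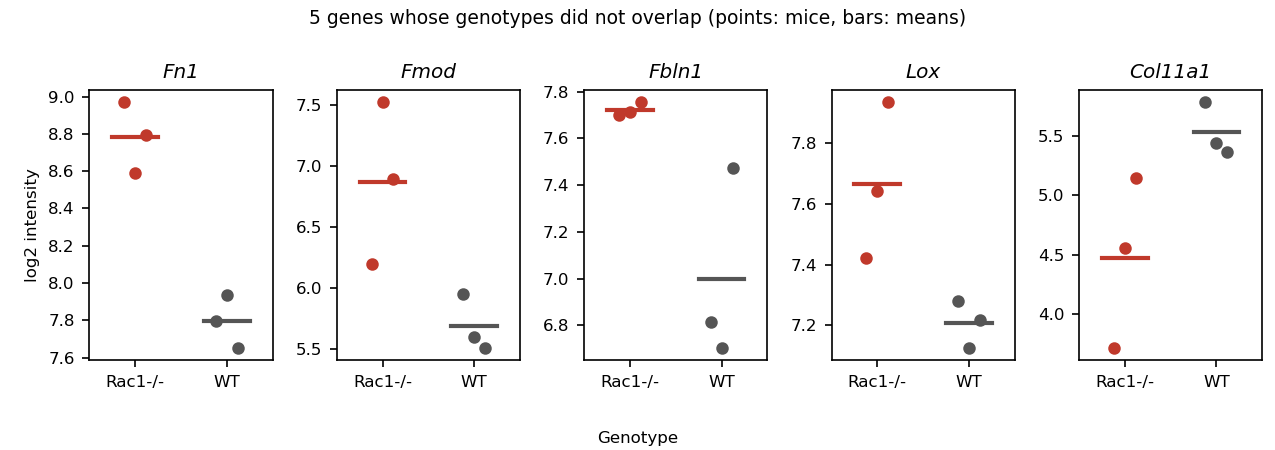
Log2 intensity (vertical axis, a separate scale for each gene) of Fn1, Fmod, Fbln1, Lox and Col11a1 in each mouse by genotype, with points for mice and bars for the means of 3. Fn1 shows means of 8.78 in Rac1-/- and 7.79 in WT, and for Fbln1 the lowest Rac1-/- mouse at 7.70 stands close above the highest WT mouse at 7.47.

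Promoter sequence was matched for 27 of the 40 genes in the RefSeq table of assembly GRCm38.p6. The 150 bases before a transcription start are shown for 3 genes whose genotypes did not overlap (Fmod, Fbln1 and Col11a1) and for 3 stromal genes that were low in the same 2 mice (Col3a1, Col1a2 and Vim), so that the upstream sequence of both kinds can be read beside their values. All lie on the + strand: Fmod at chr1:134037104-134037253, Fbln1 at chr15:85205799-85205948, for the first listed of its 2 starts, Col11a1 at chr3:114030390-114030539, Col3a1 at chr1:45311388-45311537, Col1a2 at chr6:4505468-4505617 and Vim at chr2:13574161-13574310. The Col11a1 window runs up to the start in the promoter table, so that its last 61 bases lie inside the annotated gene, which begins further upstream, while the other 5 windows end just before the gene. Capitals mark matches, on either strand, to the motif TATAAA, read by the general transcription machinery, the motif CCAAT, read by nuclear factor Y, the motif GGGCGG, read by Sp1, or the motif TGANTCA, read by AP-1.
Fmod: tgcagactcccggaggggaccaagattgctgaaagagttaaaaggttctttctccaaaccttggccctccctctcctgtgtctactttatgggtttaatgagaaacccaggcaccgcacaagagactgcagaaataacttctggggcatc
Fbln1: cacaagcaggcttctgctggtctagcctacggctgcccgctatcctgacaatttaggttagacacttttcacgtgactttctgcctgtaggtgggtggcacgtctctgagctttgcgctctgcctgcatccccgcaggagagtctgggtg
Col11a1: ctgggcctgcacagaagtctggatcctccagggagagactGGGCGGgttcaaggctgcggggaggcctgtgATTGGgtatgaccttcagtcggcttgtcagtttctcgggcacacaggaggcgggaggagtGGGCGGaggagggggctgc
Col3a1: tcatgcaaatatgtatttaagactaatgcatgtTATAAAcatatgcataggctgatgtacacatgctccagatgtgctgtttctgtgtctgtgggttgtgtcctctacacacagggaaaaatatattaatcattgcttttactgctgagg
Col1a2: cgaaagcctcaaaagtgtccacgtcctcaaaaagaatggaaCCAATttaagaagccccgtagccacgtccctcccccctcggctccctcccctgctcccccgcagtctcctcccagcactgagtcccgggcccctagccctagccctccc
Vim: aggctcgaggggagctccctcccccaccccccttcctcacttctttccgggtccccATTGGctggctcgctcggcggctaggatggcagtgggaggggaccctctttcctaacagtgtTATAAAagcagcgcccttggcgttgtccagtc
Among 32851 promoter windows of the same length, 7.57% held the motif TATAAA, 24.5% held the motif CCAAT, 28.6% held the motif GGGCGG and 4.24% held the motif TGANTCA. The Col11a1 window held 2 matches to the Sp1 motif, the second of them inside the annotated gene, and 1 to the nuclear factor Y motif on the - strand, the Col3a1 window 1 TATAAA match, the Col1a2 window 1 nuclear factor Y match, and the Vim window 1 TATAAA match and 1 nuclear factor Y match on the - strand. The TATAAA match lay 117 to 112 bases before the start in the Col3a1 window and 32 to 27 bases before it in the Vim window. No motif was held by all 3 stromal windows, and none of the motifs was found in the windows of Fmod and Fbln1.

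Single mice of the same genotype differed widely in some of the 38 genes. On the chosen probe sets, the range over the 6 mice had a median of 1.71 on the log2 scale. It ran from 0.44 for Tnc to 3.81 for Col1a1, and the median over all genes was 1.85. Taken as the median deviation of the 38 genes from their own means, the Rac1-/- mice stood at 0.45 (Nas496), -0.27 (Nas497) and 0.15 (Nas518), against -0.094 (Nas478), 0.18 (Nas483) and 0.017 (Nas484) in WT mice. The genotypes overlapped, with the highest and the lowest mouse of the 6 both in the Rac1-/- group. Nas496 held the highest value for 15 of the 38 genes and Nas497 the lowest for 13.

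**Figure D3:**
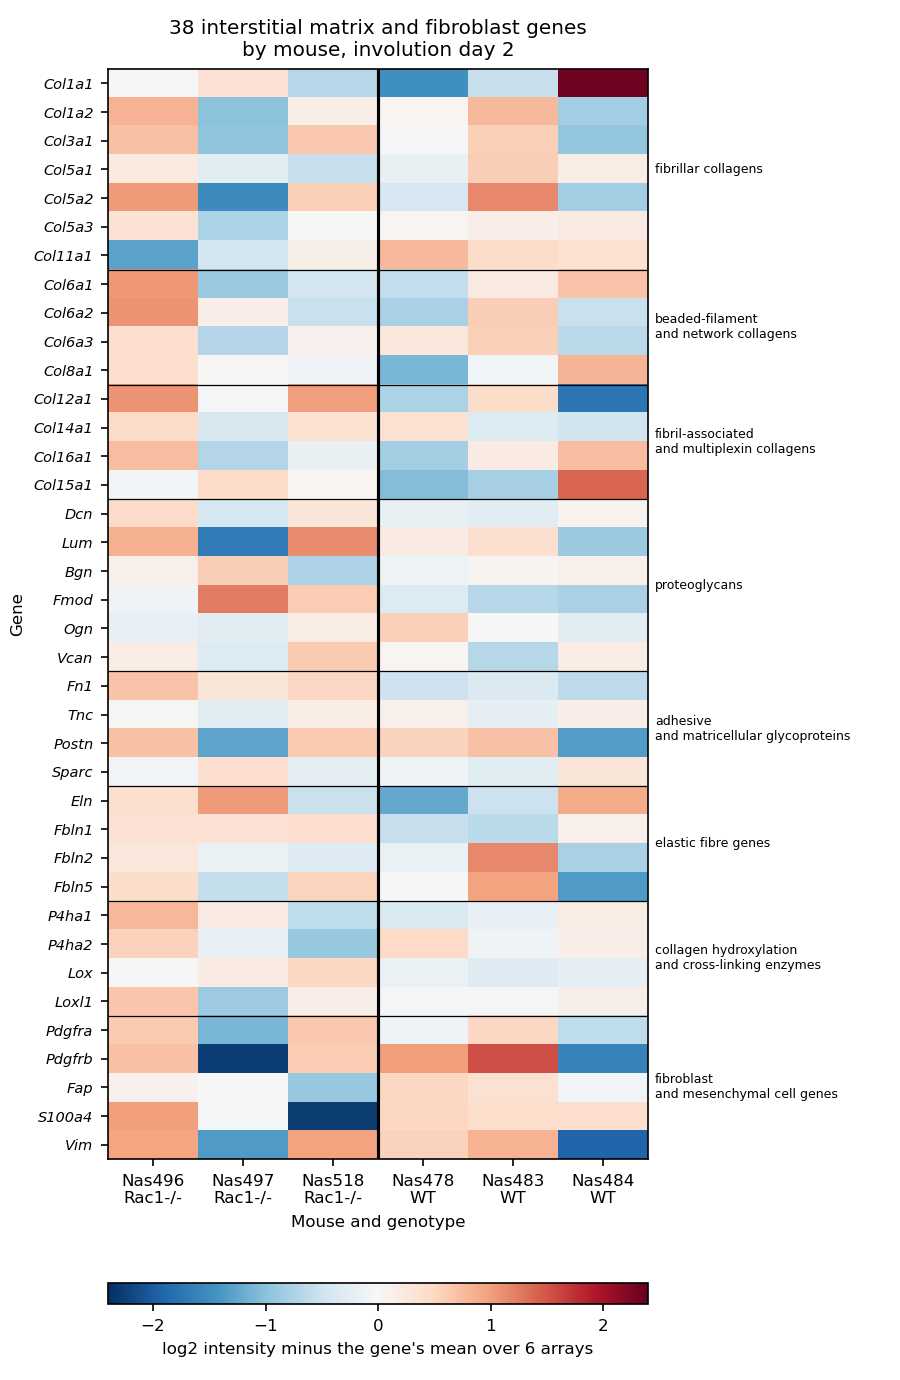
Log2 intensity minus the gene's mean over the 6 arrays (colour, blue lower and red higher) for each of the 38 genes (rows, by role) in each mouse (columns, Rac1-/- left of the line and WT right of it). Postn, Pdgfrb and Vim are blue in both Nas497 and Nas484, and Col1a1 runs the other way, with its highest value, 12.38, in Nas484.

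The 7 fibrillar collagen genes, which encode the chains of types I, III, V and XI, had higher means in Rac1-/- glands for 3 genes and lower means for 4, with a median log2 fold change of -0.20. Col3a1, the chain of the thin collagen III fibrils of loose connective tissue, measured 13.71, 12.03 and 13.65 in Rac1-/- mice, against 12.96, 13.58 and 12.08 in WT mice. One mouse of each genotype, Nas497 and Nas484, stood lower than the other 4, and the log2 fold change was 0.26 ± 0.63 (SE, 95% interval -1.18 to 1.70). Col1a2, the second chain of collagen I, measured 10.77, 8.95 and 10.08 in Rac1-/- mice, against 9.98, 10.71 and 9.09 in WT mice, with the same low pair of mice. Its log2 fold change was 0.01 ± 0.63 (SE, 95% interval -1.44 to 1.45), so that the group means were both 9.93.

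Col1a1, the other chain of collagen I, did not follow Col1a2. On its main probe set it measured 10.06, 10.39 and 9.36 in Rac1-/- mice, against 8.57, 9.48 and 12.38 in WT mice. Here Nas484 and Nas497 were the highest mice, and the log2 fold change was -0.20 ± 0.91 (SE). Its other probe set measured 9.16, 6.72 and 8.01 in Rac1-/- mice, against 8.46, 9.31 and 8.02 in WT mice, where Nas497 was the lowest. Both chains are built into the same collagen I molecule, and the probe sets of Col1a1 therefore did not give a single account of it on these arrays.

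Collagen V limits the width of collagen I fibrils. On the main probe sets of its 3 chains, Col5a1 and Col5a3 had lower means in Rac1-/- glands and Col5a2 was near 0. Col5a2 measured 10.01, 7.45 and 9.56 in Rac1-/- mice, against 8.59, 10.15 and 8.16 in WT mice (log2 fold change 0.04 ± 0.79, SE). Its other, dimmer probe set stood at -0.65 ± 0.58 (SE), with overlapping groups. Col5a1 (-0.40 ± 0.46, SE) had a lower mean in Rac1-/- glands in every setting tried, without passing the test. Col5a3 had -0.29 ± 0.46 (SE) on its main probe set and 0.83 ± 0.44 (SE) on a dimmer one, on which all Rac1-/- mice, at 5.81, 5.98 and 5.91, were above all WT mice, at 5.27, 4.72 and 5.22.

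Nas484 and Nas497, 1 mouse of each genotype, were the lowest 2 of the 6 mice for 12 of the 38 genes (31.6%, compared with 14.8% of all genes): Col1a2, Col3a1, Col5a2, Col6a3, Col14a1, Lum, Ogn, Postn, Fbln5, Pdgfra, Pdgfrb and Vim. Among genes above the median level the count was 11 of 30, or 36.7%, compared with 22.1% of 9097 genes. Of these 12 genes, 9 had several probe sets. The pair was lowest on every one for 4 (Col1a2, Col3a1, Ogn and Vim) and not lowest on at least 1 for 5 (Col5a2, Col14a1, Fbln5, Pdgfra and Pdgfrb). On the chosen probe sets, Nas484 and Nas497 were the highest 2 for 5 genes (13.2%, compared with 19.8% of all genes): Col1a1, Col15a1, Bgn, Sparc and Eln. Other probe sets were mixed here too. The pair was highest again on the other one of Eln, at 8.02 in Nas497 and 8.26 in Nas484. On one of Bgn, Nas497 was the lowest mouse, at 7.47. On one of Sparc, Nas497 (9.86) stood below Nas496 (10.59). The arrays of Nas484 and Nas497 also scored highest on the leading component, along which the 6 arrays were graded. Their difference between 3' and 5' probe sets for Gapdh was the highest, at 0.18 in Nas497 and 0.16 in Nas484, against -0.058 to 0.016 in the other 4. The part of array quality in this pattern was not tested.

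**Figure D4:**
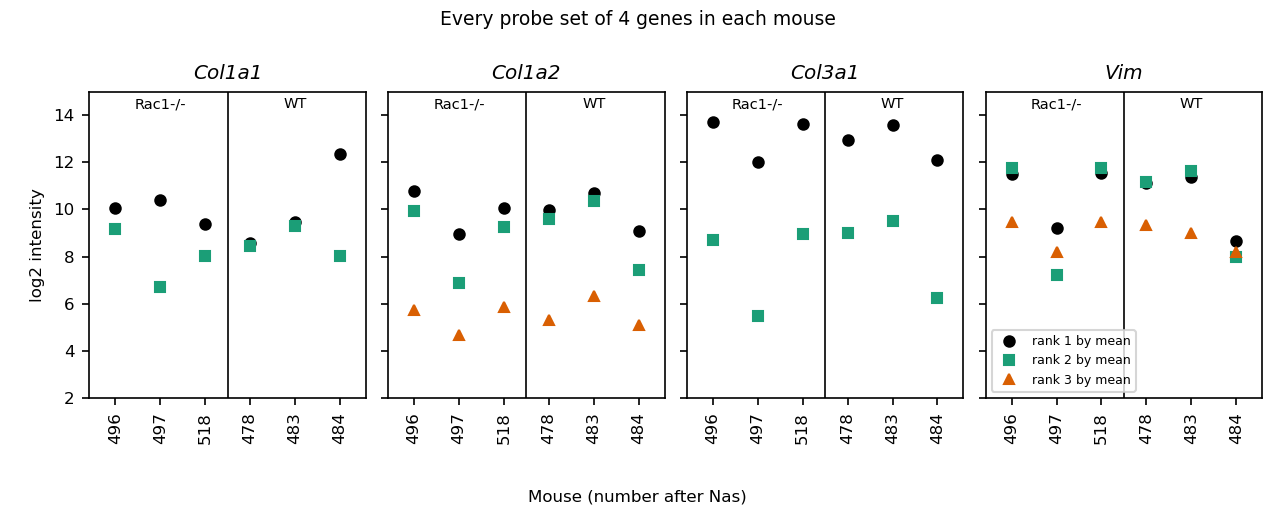
Log2 intensity (vertical axis) of every probe set of Col1a1, Col1a2, Col3a1 and Vim in each mouse (horizontal axis, Rac1-/- left of the line and WT right of it), with symbols for probe sets ranked by mean. In Col1a2, Col3a1 and Vim every probe set is lowest in Nas497 and Nas484, and in Col1a1 the 2 probe sets go apart in those mice.

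Vim encodes vimentin, the intermediate filament protein of fibroblasts and other mesenchymal cells. It measured 11.51, 9.21 and 11.53 in Rac1-/- mice, against 11.13, 11.40 and 8.65 in WT mice. The log2 fold change was 0.36 ± 0.90 (SE, 95% interval -1.70 to 2.41), well inside the spread between mice of either genotype. Pdgfra, the receptor for platelet-derived growth factor by which stromal fibroblasts are recognised, measured 7.73, 6.02 and 7.75 in Rac1-/- mice, against 7.03, 7.61 and 6.50 in WT mice (0.12 ± 0.61, SE). Pdgfrb, its relative on pericytes and fibroblasts, measured 6.34, 3.38 and 6.24 in Rac1-/- mice, against 6.64, 7.18 and 4.03 in WT mice, and had the widest standard error of the list (-0.63 ± 1.03). On these probe sets each gene had 1 low mouse in each group. Other probe sets differed: a second one of Pdgfrb measured 5.92, 5.95 and 3.59 in Rac1-/- mice, against 4.77, 5.18 and 7.09 in WT mice, with Nas484 and Nas497 highest, and one of Pdgfra was highest in Nas497, at 7.10.

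The other 2 fibroblast genes had lower means in Rac1-/- glands, and the median over the 5 genes of this role was -0.53. Fap, a surface protease of activated fibroblasts, measured 7.09, 6.99 and 6.07 in Rac1-/- mice, against 7.48, 7.35 and 6.92 in WT mice. Nas497 of the Rac1-/- group was above Nas484 of the WT group, so the groups overlapped, and the log2 fold change was -0.53 ± 0.48 (SE). S100a4, a calcium-binding protein also made by macrophages, measured 7.22, 6.19 and 3.94 in Rac1-/- mice, against 6.72, 6.64 and 6.64 in WT mice. Its log2 fold change of -0.88 ± 0.78 (SE) rested on Nas518 and was 0.037 without that mouse.

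Collagens VI and VIII, which form beaded filaments and networks between the fibrils, stood at log2 fold changes of -0.20 for Col6a1, 0.47 for Col6a2, -0.13 for Col6a3 and 0.22 for Col8a1. Their groups overlapped, and Col6a2, the member of this role with the widest difference, measured 8.93, 8.02 and 7.32 in Rac1-/- mice, against 7.08, 8.43 and 7.32 in WT mice. The 3 chains of collagen VI are assembled together, and on the chosen probe sets their means did not share a direction. Each difference was smaller than its standard error (0.62, 0.59 and 0.53 for Col6a1, Col6a2 and Col6a3). The other probe set of Col6a2 stood at -0.07 ± 0.56 (SE), and with it the means of all 3 chains were lower in Rac1-/- glands.

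The fibril-associated collagens sit on the surface of collagen I fibrils, and Col12a1 had the highest fold change of all 38 genes. It measured 6.85, 5.73 and 6.77 in Rac1-/- mice, against 5.004, 6.21 and 4.02 in WT mice. Nas483 of the WT group was above Nas497 of the Rac1-/- group, and the log2 fold change was 1.37 ± 0.64 (SE, 95% interval -0.10 to 2.84, adjusted p 0.946 in limma). Its other 3 probe sets had log2 fold changes of -0.08, 0.49 and 0.48, and the mean over its probe sets was 0.56. Col14a1 stood at 0.30 and Col16a1 at -0.09. Col15a1, a collagen of the zone beside basement membranes, measured 8.52, 9.06 and 8.64 in Rac1-/- mice, against 7.55, 7.79 and 10.00 in WT mice (0.30), with Nas484 again far from its group.

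Of the 6 proteoglycan genes, 4 had higher means in Rac1-/- glands and 2 lower, with a median log2 fold change of 0.22. Dcn encodes decorin, which coats collagen fibrils and binds growth factors. It measured 11.11, 10.23 and 10.94 in Rac1-/- mice, against 10.46, 10.39 and 10.73 in WT mice (0.23 ± 0.45, SE, 95% interval -0.80 to 1.26). Decorin thus varied less between mice than Lum, its relative lumican, which measured 9.98, 7.46 and 10.27 in Rac1-/- mice, against 9.33, 9.50 and 8.23 in WT mice (0.21 ± 0.79, SE). Biglycan (Bgn, -0.03) and osteoglycin (Ogn, -0.19) were close to 0. Vcan, the large hyaluronan-binding proteoglycan versican, had a log2 fold change of 0.30 ± 0.48 (SE) on its main probe set, and on another of its 8 probe sets measured 6.58, 6.71 and 6.99 in Rac1-/- mice, against 5.64, 5.72 and 4.70 in WT mice (1.40 ± 0.49, SE). That second probe set separated the genotypes and the main one did not. The remaining probe sets of Vcan all overlapped, with log2 fold changes of 0.51, 0.41, 0.68, 1.11, -2.09 and -1.12. The negative values came from the dimmest ones.

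The other 3 adhesive genes encode matricellular proteins, secreted modulators of how cells hold the matrix, and stayed near 0 on their chosen probe sets. Sparc, which binds collagen, measured 10.27, 10.73 and 10.10 in Rac1-/- mice, against 10.22, 10.04 and 10.62 in WT mice (0.07 ± 0.44, SE, 95% interval -0.93 to 1.08). Postn, periostin, which promotes collagen cross-linking, measured 11.43, 9.46 and 11.35 in Rac1-/- mice, against 11.27, 11.43 and 9.38 in WT mice (0.05 ± 0.75, SE). The pair of low mice was again Nas497 and Nas484. Tenascin C (Tnc) had a log2 fold change of -0.03 and the narrowest range over the mice on its chosen probe set. A dimmer probe set of Tnc varied widely, at 5.66, 3.60 and 7.02 in Rac1-/- mice, against 6.62, 5.69 and 4.66 in WT mice. On it Nas497 and Nas484 were again the lowest mice.

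Among the 4 measured elastic fibre genes, 3 had higher means in Rac1-/- glands on their chosen probe sets, and the median log2 fold change was 0.42. Eln, elastin itself, measured 8.92, 9.57 and 8.002 in Rac1-/- mice, against 7.31, 8.02 and 9.43 in WT mice (0.58 ± 0.67, SE). The WT mouse Nas484 lay within the Rac1-/- values, and the groups overlapped. A dimmer probe set of Eln overlapped too and had the other sign, at -0.65 ± 0.66 (SE). Fibulin 2 (Fbln2) stood at -0.15 and fibulin 5 (Fbln5), which organises elastin on microfibrils, at 0.27. The prolyl hydroxylase subunits P4ha1 (0.25) and P4ha2 (-0.37), which make the hydroxyproline that holds the collagen helix, and the elastin cross-linking enzyme Loxl1 (-0.04) overlapped between genotypes.

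The probe sets that were not chosen gave no firmer account. The 38 genes had 89 probe sets, of which 51 were other than the chosen one and belonged to 29 genes. Of these 51, 28 had a difference of the same sign as the chosen probe set and 23 the other sign, and all probe sets shared a sign for 13 of the 29 genes. All Rac1-/- mice were above all WT mice on 2 of the 51, those of Col5a3 and Vcan, where the background over all probe sets naming 1 symbol was 4.27%, and below on 0 (background 5.34%).

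Other genes of the same matrix were read from lists of known function. Of 21 measured genes (29 listed) for collagen synthesis and processing, 0 passed after adjustment, 10 had higher means in Rac1-/- glands and 11 lower, and the median log2 fold change was -0.02. Pcolce2, an enhancer of procollagen trimming, measured 7.12, 7.80 and 7.54 in Rac1-/- mice, against 6.46, 6.87 and 5.83 in WT mice (1.10 ± 0.48, SE). Loxl4 also had all Rac1-/- mice above all WT mice (0.79 ± 0.44, SE). These were 2 of the 21 genes (background 5.41% of all genes), and 0 had all Rac1-/- mice below. Of 30 measured further glycoproteins and small leucine-rich proteoglycans, 0 passed, 17 were higher and 13 lower in their means, and the median was 0.17. All Rac1-/- mice were above all WT mice for 3 of them (Thbs2, Thbs3 and Ecm1, background 5.41% of all genes). They were below for 1, Sparcl1 (-0.92 ± 0.50, SE, background 4.20%). Thbs2, thrombospondin 2, a matricellular protein that restrains blood vessel growth, measured 8.13, 8.30 and 8.45 in Rac1-/- mice, against 7.29, 7.21 and 6.45 in WT mice (1.31 ± 0.45, SE). All Rac1-/- mice were above all WT mice on 2 of its 3 probe sets (background 4.27% of probe sets naming 1 symbol). The third, dimmer one overlapped and had the other sign, at -0.54 ± 1.09 (SE). Over all settings tried, the log2 fold change of Thbs2 lay between 0.55 and 1.59. Thbs3 stood at 1.02 ± 0.47 (SE). The 13 measured genes of a further elastic fibre list (14 listed) had 0 calls and a median of -0.06, and Mfap5, a microfibril protein, measured 8.46, 8.17 and 8.58 in Rac1-/- mice, against 7.62, 7.46 and 7.68 in WT mice (0.82 ± 0.42, SE). Emilin2, another elastic fibre protein, stood at 0.81 ± 0.48 (SE).

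Markers of the cells that could carry these transcripts were read beside them, each list as its mean log2 intensity. The 10 measured fibroblast markers (11 listed) stood at 7.75, 6.49 and 7.02 in Rac1-/- mice, against 7.19, 7.07 and 6.62 in WT mice. Their mean was lowest in Nas497 and Nas484, but among single markers only Dpt was lowest in these mice, at 5.55 and 7.41. Mfap5 was instead lowest in Nas483 and Nas478, and Cd248 was highest in Nas484, at 6.86. Of the 10, 6 had higher and 4 lower means in Rac1-/- glands, at a median difference of 0.080 on the log2 scale, with Dpt at -0.70 and Clec3b at -0.73. Scara5 (0.94 ± 0.43, SE) and Mfap5, the same gene as in the elastic fibre list, had the smallest p. These 2 of the 10 had all Rac1-/- mice above all WT mice (background 5.41% of all genes). The mean levels of the 7 pericyte markers overlapped as well, at 6.37 to 6.61 in Rac1-/- and 6.25 to 6.92 in WT mice. Those of the 9 endothelial markers did too, at 6.37 to 6.85 in Rac1-/- and 6.33 to 7.21 in WT mice. The genes of smallest p were Cspg4 (0.86), Abcc9 (-0.87), Eng (1.08) and Tie1 (-0.59). Cspg4 had all Rac1-/- mice above all WT mice (1 of 7 markers, background 5.41% of all genes). Tie1 had all Rac1-/- mice below all WT mice (1 of 9 markers, background 4.20%). The 7 measured adipocyte markers stood at 9.02, 7.85 and 8.49 in Rac1-/- mice, against 8.48, 8.49 and 7.85 in WT mice, and were again lowest in Nas497 and Nas484. Pparg (-0.81) and Retn (0.66) led this list. The 10 macrophage markers stood at 8.46, 7.43 and 8.22 in Rac1-/- mice, against 7.72, 7.77 and 7.14 in WT mice, again lowest in those 2 mice, and 9 of 10 had a higher mean in Rac1-/- glands with 0 passing the test (C1qa 0.63, Adgre1 0.72). No marker of these lists was at the floor in any mouse. The part of cell composition in the values of the 38 genes was not tested.

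Among the epithelial lists, that of milk secretion separated the genotypes by its mean level. The 6 milk-secreting markers, genes of milk proteins and their secretion, stood between 12.6 and 13.5 in Rac1-/- mice, against 14.78 to 15.01 in WT mice, with lower means in Rac1-/- glands for 6 of 6 and a median log2 fold change of -1.69. Glycam1 (-3.62 ± 0.50) and Wap (-2.77 ± 0.45, SE) led them. None passed after adjustment, and 4 of the 6 had all Rac1-/- mice below all WT mice (background 4.20% of all genes). In mean level, the luminal list overlapped between genotypes, at 9.50 to 9.87 in Rac1-/- and 9.47 to 9.58 in WT mice. The myoepithelial list overlapped too, at 7.14 to 7.86 in Rac1-/- and 7.14 to 7.48 in WT mice. It had 4 higher and 4 lower means in Rac1-/- glands and a median log2 fold change of -0.079. Skeletal muscle overlapped as well, at 6.18 to 7.82 in Rac1-/- and 6.37 to 7.74 in WT mice. Single epithelial genes did separate the groups. Of the 8 luminal markers, Krt18 and Cldn3 had all Rac1-/- mice above all WT mice, and Elf5 had all below. Of the 8 myoepithelial markers, Acta2 had all Rac1-/- mice above. The backgrounds were 5.41% of all genes above and 4.20% below. The genes of smallest p were Elf5 (-1.45) and Krt18 (0.90) of the luminal list, Acta2 (1.24) and Krt14 (1.25) of the myoepithelial list and Atp2a1 (-0.83) and Acta1 (-1.11) of the muscle list.

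**Figure D5:**
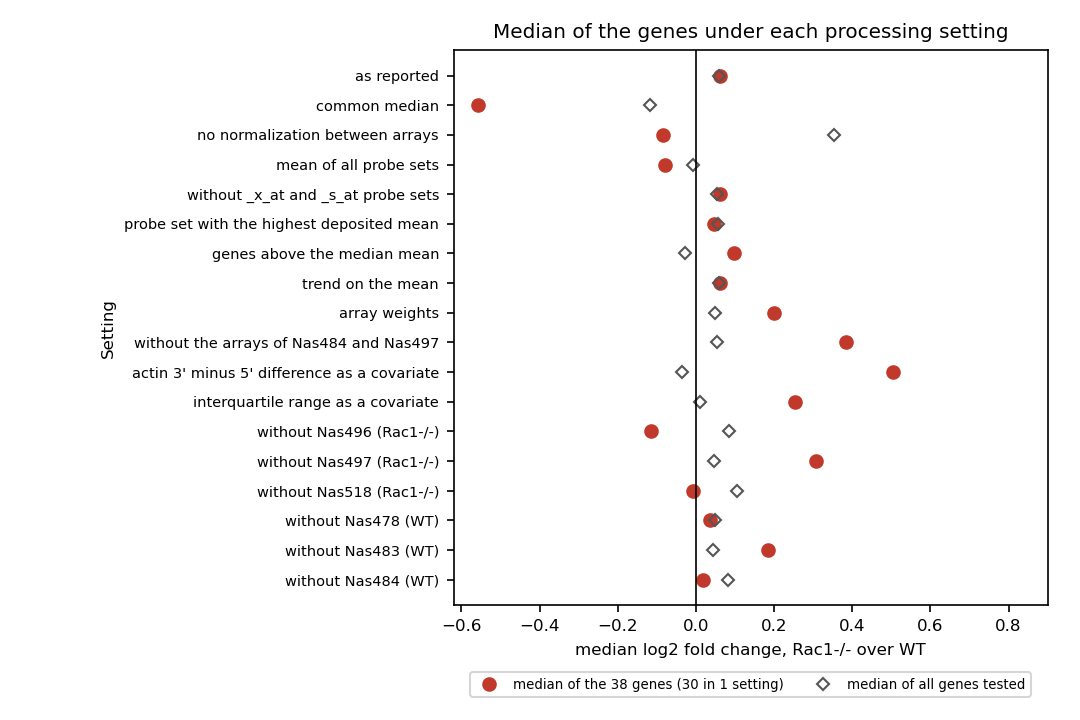
Median log2 fold change (Rac1-/- over WT, horizontal axis) of the 38 genes (red) and of all genes tested (open diamonds) under each way of processing the arrays (vertical axis). The 38 genes stand at 0.063 as reported, at -0.56 with arrays aligned at a common median and at 0.38 without Nas484 and Nas497.

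The balance of the 38 genes moved with the choice of scaling and with single mice. Without Nas484 and Nas497, 28 had higher and 10 lower means, at a median of 0.38. Leaving out Nas497 gave a median of 0.31 and leaving out Nas496 gave -0.12. Fn1, Fbln1, Vcan and Col12a1 had higher means and Col11a1, Col5a1 and Fap lower means in Rac1-/- glands under every alternative setting in which they were tested (17, or 16 for the dim genes Vcan, Col12a1 and Col11a1), with 0 of the 38 passing after adjustment in any of them.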

How the data were processed

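Array intensity values were deposited by the authors on a linear scale, 1 array per mouse, after quality control in Expression Console; the trimmed mean without the outer 2% was 100 on each array. RNA was amplified with a kit meant for scarce, degraded input. The summary method was not given in the sources used here. Values were quantile-normalized, floored at 1 and converted to log2 in R 4.3.3 with limma 3.58.1. Of 45101 probe sets, 34958 named 1 gene symbol, 932 several and 9211 none, by the platform annotation. Each gene took its probe set with the highest mean of normalized log2 values over the 6 arrays. The 18194 genes were fitted with lmFit and eBayes (Rac1-/- minus WT), and p-values were adjusted by Benjamini-Hochberg over all of them. The script was tested on simulated data. Normalization, probe set choice, brightness, variance trend, array weights, array quality covariates and left-out mice were varied. Genes named were the members by role, and the 2 genes with the smallest p in each other list; values by mouse were given at least where groups did not overlap and for the defining genes of collagen and fibroblasts. The 40 genes and all lists were chosen with earlier results of these data known. Levels are not compared between genes, since probe sets differ in brightness.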

Additional observations from a re-analysis of the deposited data

How the results depend on the processing

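Of the 38 genes, 7 kept the sign of their difference in every alternative run on them: Col5a1, Fap, Fbln1 and Fn1 in 17, and Col11a1, Col12a1 and Vcan in 16, since dim genes have no value in the fit on genes above the median mean. The other 31 turned in at least 1. Of 638 estimates over genes and alternatives 122 turned, 0 passed after adjustment, and the smallest adjusted p was 0.608. The cause was not tested for any turn. Values below are log2 fold changes, Rac1-/- over WT. The median of the 38 genes was -0.56 with arrays aligned at a common median, 0.50 with the actin covariate, and 0.38 without Nas484 and Nas497. The count of genes higher in Rac1-/- at an unadjusted p under 0.05, 2 as reported, was 0 at a common median, 0 with the mean of all probe sets, 0 without Nas484 and Nas497, 1 with array weights and 5 with the actin covariate (Col3a1, Col12a1, Lum, Pdgfra and Vim, with neither Fn1 nor Fmod among them), 3 with the interquartile range as a covariate (Col12a1, Fn1 and Vim), 3 with the probe set of highest deposited mean (Fmod, Vcan and Fn1), and 0 to 2 with 1 mouse left out. The count lower, 0 as reported, was 1 with array weights, 1 with the interquartile range as a covariate and 0 to 1 with 1 mouse left out. At a common median the signs turned for Col1a2 (-0.98), Col3a1 (-0.98), Col5a2 (-0.69), Col6a2 (-0.18), Col14a1 (-0.070), Col16a1 (0.12), Col15a1 (-0.54), Dcn (-0.88), Lum (-0.57), Postn (-1.07), Sparc (-0.996), Eln (-0.27), Fbln5 (-0.18), Lox (-0.13), Pdgfra (-0.28) and Vim (-0.73). Without normalization between arrays, where all genes had a median of 0.35, they turned for Col1a2 (-0.51), Col3a1 (-0.51), Col5a2 (-0.22), Col5a3 (0.12), Col16a1 (0.60), Col15a1 (-0.071), Dcn (-0.41), Lum (-0.098), Postn (-0.60), Sparc (-0.52), Fbln2 (0.22), P4ha2 (0.29), Loxl1 (0.031) and Vim (-0.26). With the mean of all probe sets they turned for Col1a2 (-0.19), Col3a1 (-0.14), Col5a2 (-0.30), Col5a3 (0.27), Col8a1 (-0.28), Col14a1 (-0.033), Fmod (-0.36) and Eln (-0.035), and with the probe set of highest deposited mean, an alternative chosen after seeing the data, for Vim (-0.010). With array weights they turned for Col1a1 (0.37), Col1a2 (-0.0079), Col6a1 (0.16), Col16a1 (0.28), Tnc (0.065), Postn (-0.035) and Loxl1 (0.19), and without Nas484 and Nas497 for Col1a1 (0.69), Col5a3 (0.062), Col6a1 (0.49), Col16a1 (0.59), Tnc (0.16) and Loxl1 (0.44). With the actin covariate they turned for Col5a3 (0.29), Col6a1 (0.34), Col6a3 (0.66), Col16a1 (0.32), Col15a1 (-0.38), Ogn (0.098), Tnc (0.18), Sparc (-0.38), Eln (-0.51), Fbln2 (0.10), Loxl1 (0.75) and Pdgfrb (1.75), and with the interquartile range for Col6a3 (0.45), Col8a1 (-0.35), Col15a1 (-0.74), Ogn (0.079), Sparc (-0.17), Eln (-0.26), Fbln2 (0.32), Loxl1 (0.16) and Pdgfrb (0.94). With 1 mouse left out, the range was -0.41 to 0.50 for Col1a2, -0.14 to 0.81 for Col3a1, -0.46 to 0.82 for Col5a2, -0.30 to 1.10 for Lum, -0.61 to 0.69 for Postn, -0.086 to 0.62 for P4ha1, -0.17 to 0.70 for Pdgfra, -0.51 to 1.13 for Vim, -0.53 to 0.027 for Col5a3, -0.76 to 0.20 for Col6a1, -0.48 to 0.19 for Col6a3, -0.51 to 0.26 for Col16a1, -0.16 to 0.087 for Tnc, -0.11 to 0.24 for Sparc, -0.38 to 0.39 for Loxl1, -1.59 to 0.34 for Pdgfrb, -0.99 to 0.91 for Col1a1, -0.33 to 0.34 for Bgn, -1.60 to 0.037 for S100a4, -0.26 to 0.69 for Col8a1, -0.15 to 1.07 for Col15a1, -0.38 to 0.044 for Ogn, -0.58 to 0.40 for Fbln2 and -0.35 to 0.82 for Fbln5. The study describes the WT mice as littermates, but the labels do not say which mice shared a litter, so no paired analysis was run. The number of arrays and the brightness of 8 dim genes limit what could be detected.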

Other observations

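Col9a1, a chain of collagen IX that decorates the fibrils of cartilage, measured 7.47, 6.22 and 8.08 in Rac1-/- mice, against 10.18, 10.27 and 8.59 in WT mice. All Rac1-/- mice were below all WT mice (background 4.20% of all genes), and the log2 fold change was -2.42 ± 0.67 (SE), without passing after adjustment. A dimmer probe set of Col9a1 separated the genotypes in the same direction, at 6.65, 5.92 and 5.28 in Rac1-/- mice, against 7.74, 6.94 and 7.72 in WT mice. Over all settings its log2 fold change lay between -3.01 and -1.09. The 18 measured genes of this list of other interstitial collagens (19 listed) had a median of 0.21, with 12 higher and 6 lower means in Rac1-/- glands. Col2a1, the fibrillar collagen of cartilage, stood at 0.89 ± 0.60 (SE).

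Genes by which cells bind and take up collagen had 6 higher and 3 lower means in Rac1-/- glands, over 9 measured of 10 listed, at a median of 0.29 on the log2 scale, and 0 calls. Mrc2, the endocytic collagen receptor of fibroblasts, and the integrin subunit Itga10 had the smallest p-values of the list, at 0.76 ± 0.57 and 0.61 ± 0.52 (SE), both with overlapping groups.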
